A study of Rattus norvegicus with 8 samples.

Results

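The voltage-gated sodium and calcium channel genes were taken as all genes on the array whose name in the files starts with Scn, a number and the letter a or b, or with Cacna, Cacnb or Cacng. This rule found 40 genes of the 26514 names on the array. They were covered by 52 of the 30367 probes, and the probe with the highest mean signal stood for each gene. The rule used gene names only and no measured value of a member, but the set was chosen with earlier results of these data known. By subunit class there were 10 pore-forming sodium channel genes (Scn with the letter a), 4 sodium channel beta subunits (Scn with the letter b), 10 pore-forming calcium channel genes (Cacna1), 4 alpha2delta subunits (Cacna2d), 4 calcium channel beta subunits (Cacnb) and 8 gamma subunits (Cacng).

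RNA came from the lumbar L6S1 segments of the spinal cord of male Wistar rats, 12 weeks old. The 4 stressed rats had been placed on a platform surrounded by water (water avoidance, WA) for 1 h on each of 10 days, and the cord was taken 24 h after the last session. The 4 control rats were handled and not placed on the platform. Both groups were otherwise untreated, each rat had its own 1-colour Agilent array, and the samples were whole segments, so that fewer cells of a type and less RNA per cell cannot be told apart.

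Voltage-gated sodium channels open when the membrane depolarises and carry the upstroke of the action potential, while their beta subunits alter gating and anchor the pore at the axon initial segment and the node of Ranvier. Voltage-gated calcium channels turn the action potential into calcium entry, which releases transmitter at presynaptic terminals and drives signalling in the cell body. Their alpha2delta and beta subunits carry the pore to the membrane, and several gamma subunits serve mainly as partners of AMPA-type glutamate receptors (TARPs). In the spinal cord both families are known as sites of action for drugs against pain.

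The probes decide which stretch of a transcript each value comes from, so the first 30 bases of those on which the comparisons below turn are given here. All probes were 60 bases long. Positions are those of the files on rat assembly rn4 and cover the whole probe. Exons, introns and UTRs at these positions were not analysed here. Cacng2 (chr7:115913454-115913513, minus strand) was the channel gene that passed the test, and Cacnb3 (chr7:137394172-137394231, plus strand) was the other one with no overlap between the groups. Scn3b (chr8:43253930-43253989, plus strand) was the sodium channel gene with the smallest p value, and Cacng8 (chr1:64069079-64071811, minus strand, a span of 2733 bases that includes a gap) had the largest positive difference.
Cacng2: ggggagggaccacagcagccacggggagac
Cacnb3: acccttgccttatggctctagcgtttgacc
Scn3b: gactcaacgctctctgtgtcaagtactagg
Cacng8: acaaatccaaaaggaacatcatcctgggcg

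A second set of probes is shown because the value of a gene depended on which of its probes was read. Cacna1b was read by an upstream probe (chr3:2893850-2893909, minus strand) and a downstream probe (chr3:2873479-2873538), and Scn7a likewise (chr3:48634739-48634798 and chr3:48633684-48633743, minus strand). Upstream means nearer to the 5′ end of the transcript. In Cacna1i the probes lay 17 bases apart on the plus strand (chr7:118681461-118681520 and chr7:118681478-118681537) and shared 43 of their 60 bases. Capitals mark the 13 shared bases that fall within both printed stretches.
Cacna1b upstream: aatgaacatgcccatatccaatgaggacat
Cacna1b downstream: tccaatcatgcaacagaaatgggactactt
Scn7a upstream: actctaaaggtgtccactctggtcaaatcg
Scn7a downstream: gtatttcttgcaacttgaagaaaatgaccc
Cacna1i upstream: gctacccgctatcctccCGCCTGCCCCATC
Cacna1i downstream: CGCCTGCCCCATCttgccttcttttacctc

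Of the 40 genes, 39 had a probe with a position on rn4, and Cacna1s had none. Chromosomes 3, 8 and 10 carried 7 genes each. Those on chromosome 3 were Scn1a, Scn2a1, Scn3a, Scn7a, Scn9a, Cacna1b and Cacnb4, and those on chromosome 8 included Scn10a, Scn11a, Scn2b, Scn3b, Scn4b and Cacna2d2. Chromosome 1 carried 5 genes, among them Cacng6, Cacng7 and Cacng8. All 40 names matched a RefSeq gene, of which 1, Scn2a1, is now called Scn2a. The GC content of the probes was between 35.0% and 61.7% with a median of 45.0%, the median of all probes.

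Signals are given as log2 of the processed fluorescence minus the 75th percentile of the array, so that 0 is the 75th percentile of that array. Values of one probe are compared between rats, never with another probe. Values of single rats are listed in the order of control replicates 1 to 4 and stressed replicates 1 to 4. A difference is the stressed mean minus the control mean on this log2 scale, with its standard error (SE) and the adjusted p value from limma (Benjamini-Hochberg over all 23677 tested probes, two-sided). A difference passed the test at an adjusted p (false discovery rate, FDR) below 0.1. Exact p values come from all 70 choices of 4 of the 8 arrays, and the smallest they can give is 0.0286.

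The slide was the same for all 8 arrays, but stressed rats filled row 1 and controls filled row 2, so that row and stress cannot be told apart. Control replicate 2 stood apart from the other controls. On the first principal component it lay at 46.1, beside the stressed rats (8.23 to 34.5) and away from the other controls (-56.3 to -39.4). Its 5′ minus 3′ difference, the median log2 signal of upstream minus downstream probes of 1887 transcripts, centred over the arrays, was 0.22, against 0.09 to 0.17 in stressed rats and -0.30 to -0.18 in the other controls. The signal of control replicate 2 was nearer to the stressed mean than to the mean of the other controls in 25 of 38 tested channel genes (65.8%) and at 68.0% of all tested probes. Results are therefore also given without it.

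The tissue had the markers of spinal cord. All 7 neuronal genes with a probe passed the filter on dim probes, and their summed signal relative to the 75th percentile was 186 to 197 in control and 189 to 221 in stressed rats. Of these, 6 had a difference above 0, and the median of the 7 was 0.20. Eno2 was the gene below 0 and alone passed the test, with a difference of -0.37 (adjusted p = 0.0649 from limma). Nefl had 0.57 with overlapping groups (adjusted p = 0.120), and Tubb3 had 0.14 with every stressed rat above every control (adjusted p = 0.338). The 6 oligodendrocyte genes summed to 231 to 332 and 249 to 344, with Mog passing at 0.90 (adjusted p = 0.0721). The 6 astrocyte genes summed to 51.2 to 61.4 and 56.9 to 75.3, the 6 microglial genes to 6.55 to 8.37 and 6.64 to 8.42, and the 5 motor neuron genes to 9.20 to 11.7 and 7.10 to 10.3, with 0 passing in each list (1, 0 and 0 at an unadjusted p below 0.05). Of the vessel, blood and meningeal markers, the 5 endothelial genes summed to 2.71 to 3.73 and 3.19 to 3.92, with Pecam1 passing at 0.40 (adjusted p = 0.0927), the 5 red blood cell genes to 75.5 to 107.005 and 62.7 to 134, and the 6 meningeal and fibroblast genes to 2.22 to 6.56 and 2.25 to 5.05, although the meninges had been removed.

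Most of the channel genes were detected. On a given array, a probe was taken as well above background if the scanner software marked a share of at least 0.5 of its spots so, and it was tested if this held for at least 4 of the 8 arrays. This was so for 38 of the 40 genes, and 34 were well above background on all 8 arrays. Cacna1f, the calcium channel pore of retinal photoreceptors, and Cacna2d4, an alpha2delta subunit also known from the retina, were well above background on 0 arrays and were not tested. All 10 sodium channel pores, 4 sodium channel beta subunits, 4 calcium channel beta subunits and 8 gamma subunits were tested, with 9 of 10 calcium channel pores and 3 of 4 alpha2delta subunits.

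Between stressed and control rats, 1 of the 38 tested channel genes passed (2.63%). This was Cacng2, which was lower in stressed rats. Among all tested probes 3.74% passed. At an unadjusted p below 0.05 there were 6 channel genes (15.8%) against 20.3% of all probes, and 5 of them were lower in stressed rats (13.2%) against 6.67%. The 5 included Cacng2, Cacnb3, Cacna1b and Scn3b, and the single higher gene was Cacng6. The groups did not overlap in 2 genes with stressed rats lower (5.26%), Cacng2 and Cacnb3, against 5.44% of all probes, and in 0 genes with stressed rats higher against 6.65%.

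The differences of the 38 genes ran from -0.68 in Scn7a to 0.56 in Cacng8, with a median of -0.05. The median of all tested probes was 0.06. Stressed rats were lower in 20 of the 38 genes (52.6%), where 40.4% of all probes had a difference below 0. The count below 0 was 26 of 38 after quantile normalization and 17 of 38 after a normexp background correction. The median of all tested probes also moved, to -0.03 after quantile normalization and 0.07 after normexp. By class, the median difference was -0.12 in the sodium channel pores, -0.14 in the sodium channel beta subunits, -0.11 in the calcium channel pores, 0.12 in the alpha2delta subunits, 0.06 in the calcium channel beta subunits and 0.29 in the gamma subunits.

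**Figure D1:**
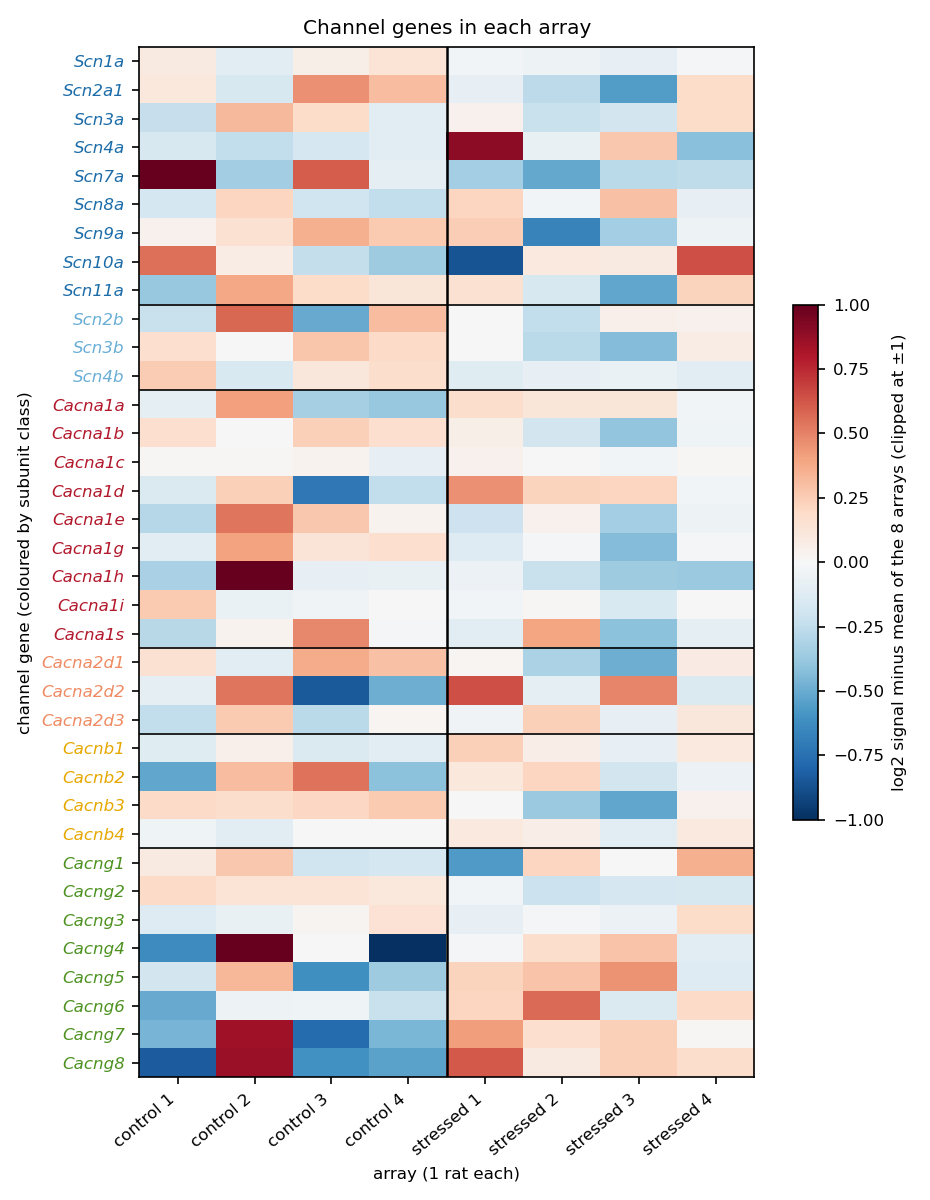
Log2 signal of 36 of the 38 tested channel genes in each of the 8 arrays (columns, 1 rat each), minus the gene's mean over the arrays and clipped at 1 in either direction (colour scale), with genes grouped by subunit class. Control replicate 2 is higher than the other controls in Cacna1h, Cacng4, Cacng7 and Cacng8, and Cacng2 is higher in every control than in any stressed rat.

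The count of calls turned on control replicate 2. Without it, 20 of the 38 genes passed (52.6%), 10 of them lower (26.3%) and 10 higher (26.3%) in stressed rats. Among all probes 42.4% passed, with 11.9% lower and 30.5% higher. The groups then did not overlap in 15 channel genes (39.5%) against 43.8% of all probes. By class, 5 of 10 sodium channel pores, 2 of 4 sodium channel beta subunits, 3 of 9 calcium channel pores, 2 of 3 alpha2delta subunits, 2 of 4 calcium channel beta subunits and 6 of 8 gamma subunits passed without this rat. With any other array left out, 0 channel genes passed by limma, so that Cacng2 was lost with each of them. Of all 23677 probes, 0 to 72 passed in these fits. At an unadjusted p below 0.05 there were 2 to 10 channel genes and 3003 to 4398 of all probes.

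**Figure D2:**
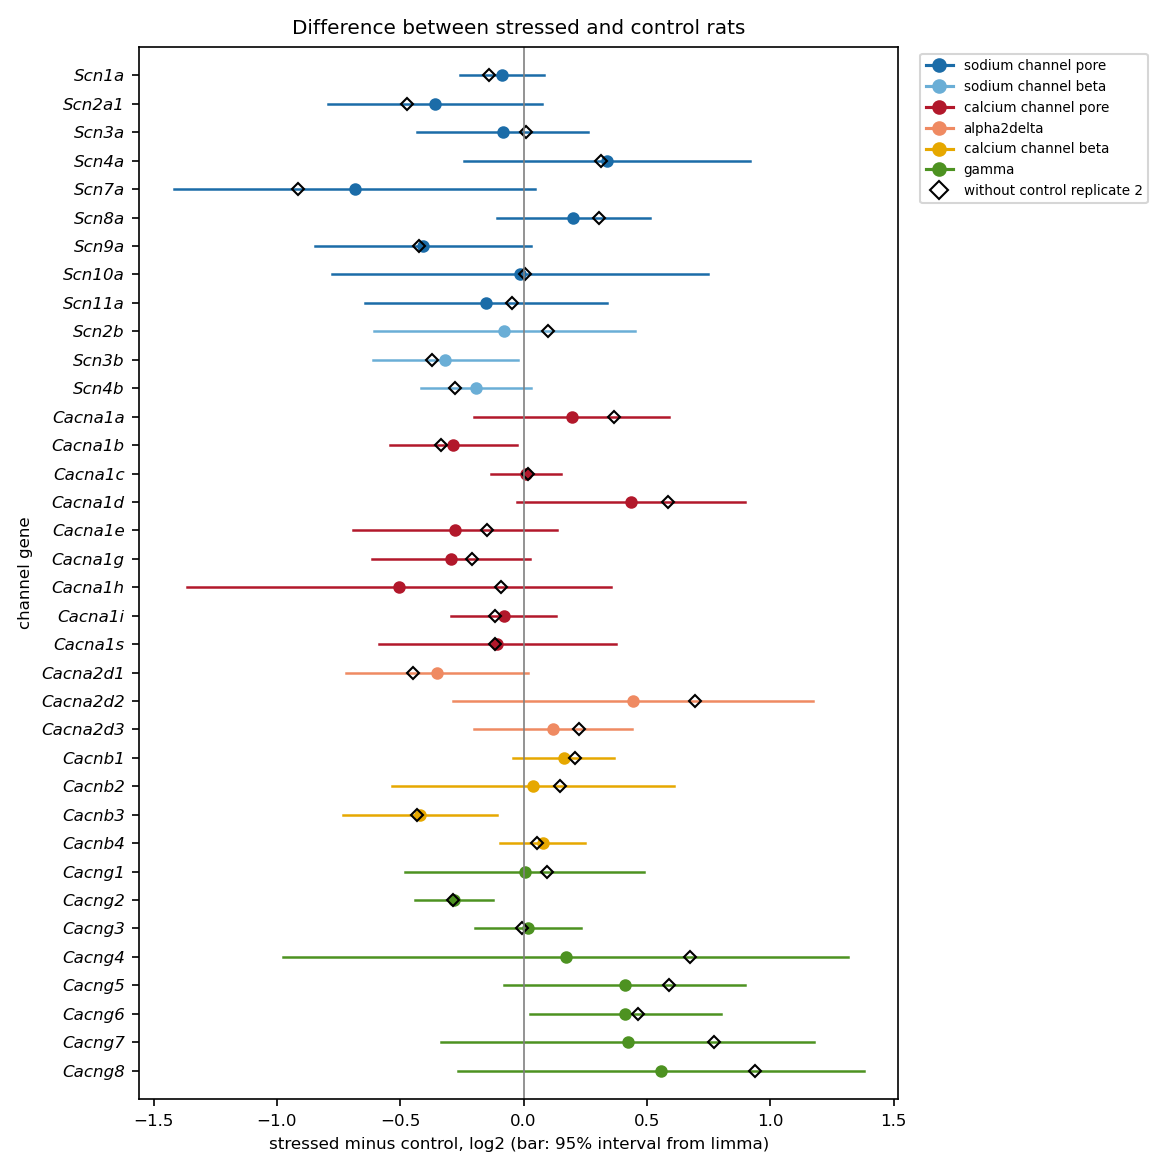
Stressed minus control difference on the log2 scale for 36 of the 38 tested channel genes (filled points, coloured by subunit class) with the 95% interval of limma (bars, n = 4 per group), and the difference without control replicate 2 (open diamonds). The interval excludes 0 in Cacng2, Cacnb3, Cacna1b, Scn3b and Cacng6, and the open diamond lies furthest to the right in Cacng8 at 0.94.

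The gamma subunits held both the single gene that passed and the largest positive differences. Of the 8 genes, 7 had a difference above 0 and Cacng2 one below 0. A difference below 0 was found at 40.4% of all probes. It was found at 29.9% of those with a mean log2 signal below -4, where most gamma subunits lay. The 7 became 4 of 8 after quantile normalization and 2 of 8 when the 5′ minus 3′ difference entered as covariate. The median of all probes was 0.06 at first, and -0.03 and -0.04 in these settings. Cacng2 encodes stargazin, the TARP that brings AMPA receptors to the synapse. Its log2 signal was 3.17, 3.11, 3.11 and 3.08 in the control rats and 2.95, 2.77, 2.81 and 2.82 in the stressed rats. Every control rat lay above every stressed rat, and control replicate 2 lay within the other controls. The means were 3.12 ± 0.04 (SD, n = 4) in control and 2.84 ± 0.08 (SD, n = 4) in stressed rats, a difference of -0.28 (SE 0.07) with an adjusted p of 0.0969 from limma and an exact permutation p of 0.0286. Without control replicate 2 the difference was -0.28 (adjusted p = 0.0163), and over all arrays left out in turn it ran from -0.32 to -0.26. The adjusted p was 0.140 after normexp and 0.0780 after quantile normalization.

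Cacng8, another TARP, measured -5.04, -3.34, -4.81 and -4.74 in the control rats and -3.59, -4.11, -3.97 and -4.03 in the stressed rats. The stressed rats lay above control replicates 1, 3 and 4 and below control replicate 2, so the groups overlapped. The difference was 0.56 (SE 0.36), with an adjusted p of 0.394 from limma over all 8 arrays and 0.00367 without control replicate 2, where the difference was 0.94. With the 5′ minus 3′ covariate the sign turned and the value was -0.32. The other gamma subunits had differences from 0.0037 (Cacng1) to 0.42 (Cacng7). Cacng7 and Cacng5, which also assist AMPA receptors, had 0.42 (SE 0.33) and 0.41 (SE 0.21), and 0.77 and 0.59 without control replicate 2, where both passed. Cacng6, a gamma subunit found in skeletal muscle, had 0.41 (SE 0.17) with an unadjusted p of 0.0394 and an adjusted p of 0.229 from limma. The TARP genes Cacng3 and Cacng4 had 0.02 (SE 0.09) and 0.17 (SE 0.50), and Cacng4 was well above background on 4 of 8 arrays only. Cacng1, the gamma subunit of the muscle L-type channel, and Cacng6 were read beside 7 skeletal muscle markers, whose summed signal was 0.18 to 0.25 in control and 0.18 to 0.21 in stressed rats. Of these markers Myh2 and Myh4 were well above background on 0 arrays, and Tnnt3 passed with -1.10 (adjusted p = 0.0765). Their part in the values of Cacng1 and Cacng6 was not tested.

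**Figure D3:**
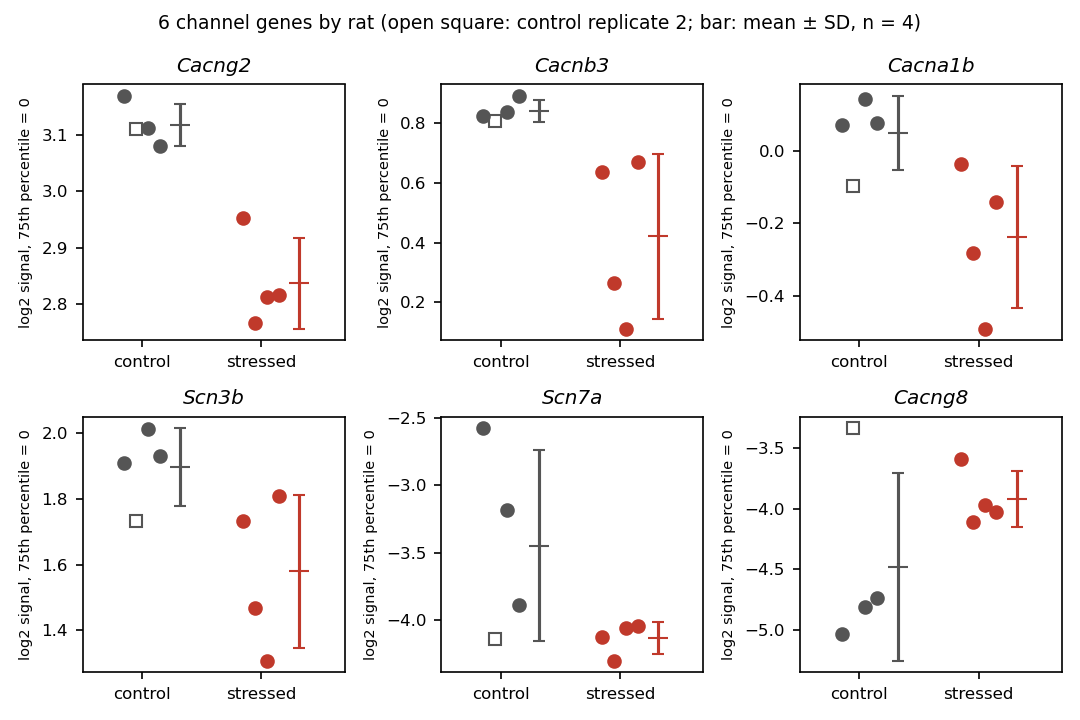
Log2 signal relative to the array's 75th percentile (vertical axes, each with its own range) in control (grey) and stressed (red) rats for 6 channel genes, with the mean and SD of 4 rats beside the points and control replicate 2 as an open square. The groups are separate in Cacng2 and Cacnb3, while control replicate 2 lies among the stressed rats in Scn7a and above them in Cacng8.

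Of the calcium channel beta subunits, which chaperone the pore and set its gating, Cacnb3 stood lower in every stressed rat and none passed over all 8 arrays. Cacnb3 gave 0.82, 0.81, 0.84 and 0.89 in the control rats and 0.64, 0.26, 0.11 and 0.67 in the stressed rats. The 4 controls lay within 0.81 to 0.89, while stressed replicates 2 and 3 were further down than stressed replicates 1 and 4. The difference was -0.42 (SE 0.13) with an exact permutation p of 0.0286, and its adjusted p of 0.162 from limma did not pass. Without control replicate 2 it was -0.43 (adjusted p = 0.0644). Cacnb1, the beta subunit of muscle that neurons also make, read 0.42, 0.59, 0.39 and 0.42 in the control rats and 0.77, 0.60, 0.46 and 0.63 in the stressed rats. Control replicate 2 was the highest of the controls, and the difference was 0.16 (SE 0.09, adjusted p = 0.334). Cacnb2, the main beta subunit of the heart, was at -6.25, -5.43, -5.19 and -6.15 in the control rats and -5.63, -5.52, -5.92 and -5.80 in the stressed rats. The controls covered a wider range than the stressed rats, and the difference was 0.04 (SE 0.25), with a value of -0.17 after quantile normalization. Cacnb4, whose loss causes the lethargic phenotype in mice, was -0.23, -0.30, -0.19 and -0.20 in the control rats and -0.09, -0.12, -0.31 and -0.09 in the stressed rats. Stressed replicate 3 was the lowest of the 8 and the other stressed rats were above every control, with a difference of 0.08 (SE 0.07, 95% interval -0.10 to 0.25).

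Among the presynaptic calcium channel pores, the N-type gene was lower and the P/Q-type gene higher in the stressed group, and neither passed over all 8 arrays. Cacna1b, the N-type pore that carries calcium into terminals of pain fibres and is the target of ziconotide, was 0.07, -0.10, 0.14 and 0.08 in the control rats and -0.04, -0.28, -0.49 and -0.14 in the stressed rats. Controls 1, 3 and 4 were above all stressed rats and control replicate 2 was within them. The difference was -0.29 (SE 0.11), with an adjusted p of 0.216 from limma and an exact permutation p of 0.0571. It passed without control replicate 2 at -0.33 (adjusted p = 0.0576). Cacna1a, the P/Q-type pore, had signals of -1.42, -0.91, -1.65 and -1.70 in the control rats and -1.15, -1.20, -1.20 and -1.35 in the stressed rats. All stressed rats were above controls 1, 3 and 4 and below control replicate 2. Its difference of 0.20 (SE 0.17) became 0.37 without that rat (adjusted p = 0.0215) and -0.17 with the 5′ minus 3′ covariate. Cacna1e, the R-type pore, gave -4.40, -3.58, -3.84 and -4.08 in the control rats and -4.32, -4.07, -4.46 and -4.16 in the stressed rats. Its groups overlapped, with a difference of -0.28 (SE 0.18, adjusted p = 0.396) that was -0.15 without control replicate 2 and -0.42 without control replicate 1. It was -0.51 after quantile normalization and -0.56 with the covariate, and did not pass in any of these.

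The L-type pores, which couple depolarisation to gene expression and to plateau potentials, did not pass either. Cacna1c was -2.80, -2.81, -2.78 and -2.90 in the control rats and -2.77, -2.82, -2.85 and -2.81 in the stressed rats. These 8 values lay within a narrow range, and the difference of 0.01 (SE 0.06) had a 95% interval of -0.13 to 0.15. Cacna1d read -5.98, -5.59, -6.55 and -6.09 in the control rats and -5.38, -5.62, -5.62 and -5.86 in the stressed rats. Control replicate 3 was the lowest rat and stressed replicate 1 the highest. The difference was 0.43 (SE 0.20, adjusted p = 0.268 from limma) and passed without control replicate 2 at 0.59 (adjusted p = 0.0351). Without control replicate 3 it was 0.27. Cacna1s, the pore of skeletal muscle, had -0.11 (SE 0.21) and was detected in 4 control and 3 stressed rats.

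The T-type pores open near the resting potential and shape burst firing. All had a difference below 0 and none passed over all 8 arrays. Cacna1h measured -2.84, -1.03, -2.60 and -2.59 in the control rats and -2.58, -2.74, -2.87 and -2.89 in the stressed rats. Control replicate 2 lay far above the other 7 rats, which lay between -2.89 and -2.58. The difference of -0.50 (SE 0.37, adjusted p = 0.458) was -0.09 without that rat. With the 5′ minus 3′ covariate, a fit that depends strongly on control replicate 2, the difference was -1.44 (adjusted p = 0.0392 from limma). Cacna1h was then the single channel gene to pass. Cacna1g was -1.62, -1.11, -1.38 and -1.34 in the control rats and -1.63, -1.53, -1.95 and -1.52 in the stressed rats. Stressed replicate 3 was the lowest rat and control replicate 2 the highest, with a difference of -0.29 (SE 0.14, adjusted p = 0.274). Cacna1i had 3.13, 2.80, 2.83 and 2.87 in the control rats and 2.84, 2.88, 2.72 and 2.87 in the stressed rats. Control replicate 1 was above the rest, which overlapped, and the difference was -0.08 (SE 0.09).

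Of the alpha2delta subunits, Cacna2d1 had a difference below 0 and the others above 0. Cacna2d1, the binding site of gabapentin, was 0.52, 0.26, 0.74 and 0.67 in the control rats and 0.39, 0.06, -0.12 and 0.45 in the stressed rats. Controls 1, 3 and 4 lay above all stressed rats, and control replicate 2 below stressed replicates 1 and 4. The difference was -0.35 (SE 0.16, adjusted p = 0.264 from limma), and -0.45 without control replicate 2 (adjusted p = 0.0616). Cacna2d2, which binds the same drug, read -6.19, -5.58, -6.95 and -6.60 in the control rats and -5.47, -6.20, -5.62 and -6.25 in the stressed rats. Control replicate 2 and stressed replicates 1 and 3 were the highest, and the difference of 0.44 (SE 0.32) became 0.70 without that control (adjusted p = 0.0813) and -0.15 with the 5′ minus 3′ covariate. Without control replicate 3 it was 0.24. Cacna2d3 was -1.95, -1.44, -1.98 and -1.69 in the control rats and -1.74, -1.47, -1.79 and -1.59 in the stressed rats. Its difference was 0.12 (SE 0.14, 95% interval -0.20 to 0.44), and -0.0027 after quantile normalization.

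Among the sodium channel pores, 8 of 10 had a difference below 0, against 40.4% of all probes, and none passed over all 8 arrays. This count was 8 of 10 after quantile normalization and 6 of 10 after normexp, where the median of all probes was -0.03 and 0.07. Scn1a, the pore of fast-spiking neurons, was 1.89, 1.69, 1.86 and 1.94 in the control rats and 1.77, 1.75, 1.72 and 1.79 in the stressed rats. Controls 1, 3 and 4 lay above all stressed rats and control replicate 2 below them, with a difference of -0.09 (SE 0.07, adjusted p = 0.515 from limma) that was -0.14 without that rat (adjusted p = 0.0813). Scn2a1, which encodes the pore of unmyelinated axons, gave -0.08, -0.35, 0.26 and 0.12 in the control rats and -0.28, -0.45, -0.75 and -0.0044 in the stressed rats. Stressed replicate 3 was the lowest and control replicate 3 the highest, and the difference was -0.36 (SE 0.19, adjusted p = 0.313), and -0.23 without stressed replicate 3. Scn8a, the main pore of nodes of Ranvier, read -1.45, -1.07, -1.48 and -1.53 in the control rats and -1.06, -1.31, -0.99 and -1.36 in the stressed rats. Control replicate 2 was level with stressed replicate 1 and well above the other controls. The difference was 0.20 (SE 0.13), and 0.31 without control replicate 2 (adjusted p = 0.0628), so that Scn1a and Scn8a passed on opposite sides when that rat was left out. Scn3a, a pore of embryonic neurons that returns after nerve injury, had -2.29, -1.73, -1.87 and -2.16 in the control rats and -2.01, -2.28, -2.24 and -1.87 in the stressed rats. The groups overlapped with a difference of -0.09 (SE 0.15).

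The pores of nociceptors, the sensory neurons whose bodies lie in the dorsal root ganglia outside the cord, were also on the array. Scn9a was -3.36, -3.25, -3.04 and -3.14 in the control rats and -3.15, -4.07, -3.74 and -3.45 in the stressed rats. Stressed replicate 1 lay within the controls and the other stressed rats below them. The difference was -0.41 (SE 0.19, adjusted p = 0.270 from limma) and -0.42 without control replicate 2 (adjusted p = 0.171), and -0.25 without stressed replicate 2, the lowest rat (adjusted p = 0.454). Scn10a measured -6.14, -6.61, -6.93 and -7.04 in the control rats and -7.55, -6.59, -6.59 and -6.04 in the stressed rats. It was detected in 4 control and 3 stressed rats, and the spread was wide in both groups, with a difference of -0.02 (SE 0.33). Scn11a was at -6.10, -5.33, -5.54 and -5.60 in the control rats and -5.57, -5.88, -6.24 and -5.50 in the stressed rats. The groups overlapped, with a difference of -0.15 (SE 0.21) that ran from -0.31 without control replicate 1 to -0.0044 without stressed replicate 3. Of 8 genes listed as markers of these neurons 6 were tested and 0 passed, with a summed signal of 19.97 to 24.9 in control and 11.2 to 22.8 in stressed rats. Most of this sum came from Calca and Tac1, and which cells of the whole segment made it was not tested. Of the 6 tested, 4 had a difference below 0 and 2 above. Tac1 was lower in every stressed rat than in any control, with -0.51 (adjusted p = 0.133 from limma). Prdm12 was well above background on 0 arrays and Mrgprd on 1. Their part in the values of Scn9a, Scn10a and Scn11a was not tested.

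Scn7a encodes a sodium channel that senses the sodium level and is known from glia and Schwann cells. Its signal was -2.58, -4.14, -3.18 and -3.89 in the control rats and -4.13, -4.30, -4.06 and -4.04 in the stressed rats. Control replicates 1 and 3 were high, while control replicate 2 lay among the stressed rats, which were close together. The difference of -0.68 (SE 0.32) was the largest of all channel genes in absolute size, with an adjusted p of 0.269 from limma, and was -0.92 (adjusted p = 0.0447) without control replicate 2. It was -0.40 (adjusted p = 0.442) without control replicate 1, and -0.0486 (adjusted p = 0.940) with the 5′ minus 3′ covariate. The 5 Schwann cell markers with a probe all had a difference below 0 and 0 passed, and their summed signal was 4.09 to 56.7 in control and 3.49 to 17.2 in stressed rats. The part of nerve root tissue in the value of Scn7a was not tested. Scn4a, the pore of skeletal muscle, had a difference of 0.34 (SE 0.25), with stressed replicate 1 the highest rat. It was 0.0971 without that rat and 0.53 without stressed replicate 4.

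Of the sodium channel beta subunits, 3 of 4 had a difference below 0, against 40.4% of all probes, and none passed over all 8 arrays. Scn3b, which affects inactivation of the pore, was 1.91, 1.73, 2.01 and 1.93 in the control rats and 1.73, 1.47, 1.31 and 1.81 in the stressed rats. Stressed replicate 4 lay above control replicate 2, while stressed replicates 2 and 3 were below every control. The difference was -0.32 (SE 0.13) with an adjusted p of 0.223 from limma and an exact permutation p of 0.0571, and -0.37 (adjusted p = 0.0650) without control replicate 2. Scn4b, a subunit linked to resurgent sodium current, read 3.47, 3.06, 3.33 and 3.39 in the control rats and 3.098, 3.13, 3.15 and 3.11 in the stressed rats. The 4 stressed rats lay within 3.098 to 3.15, below controls 1, 3 and 4 and above control replicate 2. Its difference was -0.19 (SE 0.10, adjusted p = 0.293), and -0.28 without that rat (adjusted p = 0.0106). Scn2b, which is bound covalently to the pore, was at -5.77, -4.98, -6.05 and -5.24 in the control rats and -5.55, -5.80, -5.50 and -5.51 in the stressed rats. The controls spread more than the stressed rats, and the difference of -0.08 (SE 0.23) was 0.10 without control replicate 2.

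For 12 of the genes the array carried a second probe, and both probes were tested in 11. The probes of a gene had opposite signs in 5 of the 11 genes, and the upstream probe had the higher difference in 8. At the probes printed above, Cacna1b had 0.28 (SE 0.34) upstream and -0.29 (SE 0.11) downstream. These probes of Cacna1b belong to different transcript records, so their distance within a transcript is not given. Scn7a had -0.01 (SE 0.16) upstream and -0.68 (SE 0.32) downstream at a distance of 1055 bases. Cacna1i, whose probes share most of their sequence, had -0.08 (SE 0.09) and -0.10 (SE 0.12). Cacna1c had 0.50 (SE 0.30) upstream and 0.01 (SE 0.06) downstream. The difference between the probes of a gene was not tested. The 5′ minus 3′ difference given above was higher in the stressed rats and in control replicate 2 than in the other controls, and its part in these values was not tested.

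**Figure D4:**
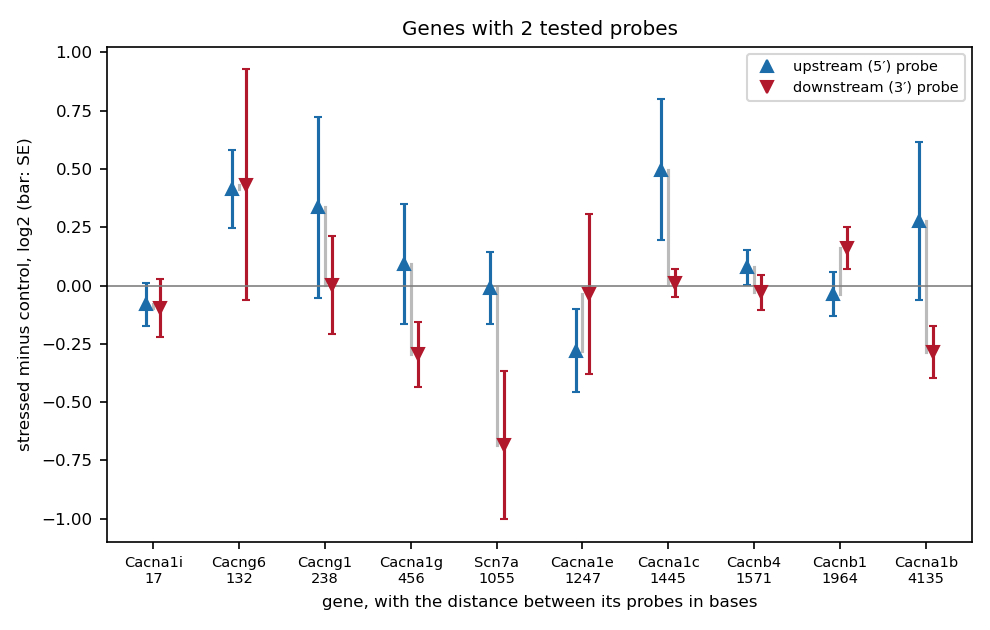
Stressed minus control difference on the log2 scale with its standard error (bars) at the upstream (blue) and downstream (red) probe of 10 of the 11 channel genes with both probes tested, ordered by the distance between the probes' start positions in bases. In Cacna1b and Cacna1e these positions are counted in different transcript records, so their distance is not one within a transcript. The upstream value lies above the downstream value in 7 of the 10 genes, and the pair of Cacna1i, 17 bases apart, lies close together.

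The size and sign of a difference also moved with the brightness of a probe, which is no measure of a gene's abundance relative to another gene. Of the 15 channel genes with a mean log2 signal below -4, 5 had a difference below 0, against 29.9% of all probes in that range. Their median was 0.17 against 0.20 over all probes in that range. Of the 14 genes between -4 and 0, 8 were below 0, against 37.8% of probes, with a median of -0.18 against 0.08. Of the 9 genes above 0, 7 had a difference below 0, against 55.9% of probes, with a median of -0.19 against -0.03. After quantile normalization these medians were -0.02, -0.26 and -0.19, against -0.03, -0.03 and -0.03 over all probes. Most gamma subunits were among the dim probes, and Cacng2 was among the bright ones.

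**Figure D5:**
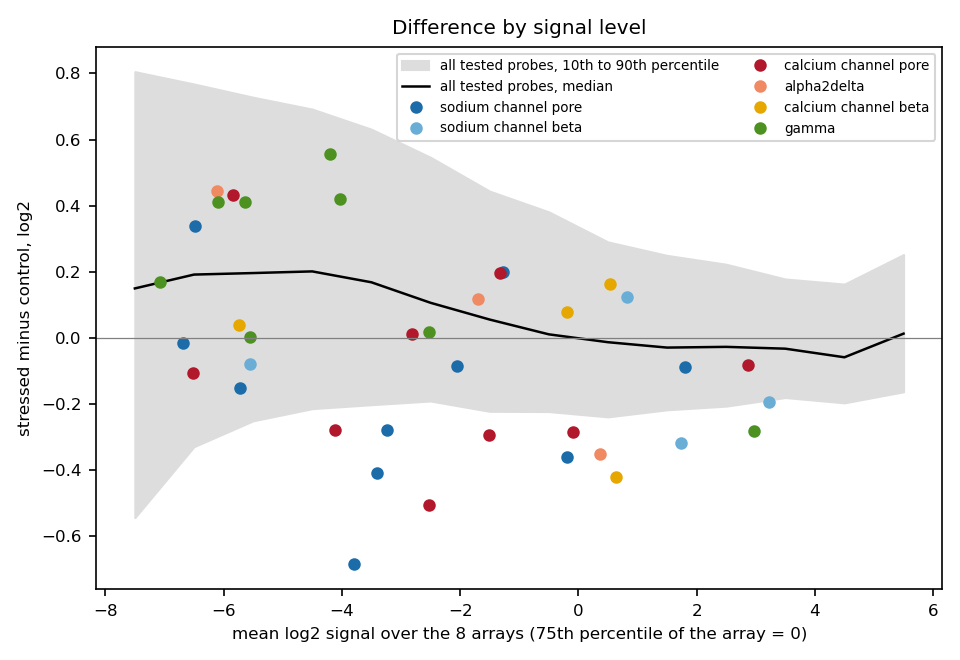
Stressed minus control difference on the log2 scale against the mean log2 signal over the 8 arrays for the 38 tested channel genes (points, coloured by subunit class), with the median (line) and the central range that leaves out the outer 10% on each side (grey) of all tested probes at each signal. The median of all probes is above 0 at low signals, and Cacng2 and Cacnb3 are among the genes below the grey range.

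Genes that work with these channels were read from a list of 46 symbols, which covers anchors of the axon initial segment, calmodulin and the fibroblast growth factor homologues that bind the pores, proteins of the presynaptic active zone, RGK proteins and kinases. Of these, 40 had a probe and 38 were tested, 19 with a difference above 0 and 19 below. None passed over all 8 arrays by limma, against 3.74% of all probes, and 8 had an unadjusted p below 0.05, against 20.3%. Without control replicate 2, 17 passed (44.7%), against 42.4% of all probes. The smallest p values were those of Fgf12, Fgf13 and Prkaca. Fgf12, which binds the sodium channel tail, was -1.26, -1.28, -1.25 and -1.06 in control and -0.95, -0.81, -1.04 and -0.74 in stressed rats, a difference of 0.33 (SE 0.09, adjusted p = 0.129 from limma). Fgf13, its relative that also binds the tail, was 1.52, 1.52, 1.603 and 1.55 in control and 1.33, 1.24, 1.006 and 1.39 in stressed rats. Its difference was -0.31 (SE 0.09, adjusted p = 0.149). In both genes the groups did not overlap, and neither did those of Rimbp2, which was lower in stressed rats. Over all probes the groups did not overlap in 5.44% with stressed rats lower and in 6.65% with stressed rats higher. Prkaca, a catalytic subunit of protein kinase A, had -0.25 (SE 0.08, adjusted p = 0.181) with overlapping groups.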

How the data were processed

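Gene expression in the spinal cord was measured on 1 Agilent array for each of 8 rats, which were separate animals, 4 stressed and 4 control per the labels. The authors deposited fluorescence intensity values, per the file headers made with the Feature Extraction software of Agilent (version 10.7.3.1) with probe positions on rn4: background-subtracted and detrended within each array, with no normalization between arrays. The deposited flags for signal well above background, saturation and outlier spots, coded as other values per the file headers, were read with them. The methods name dChip for later steps and give no test. The table deposited for the whole series holds the same intensity to within 0.05 and served as an alternative. None of the deposited columns holds a comparison between groups.

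The 4259 control spots were left out. The log2 signal was scaled by the 75th percentile of each array over the other 58717 spots, outlier spots were set to missing, and spots of a probe were averaged. Of 30367 probes, 10 were missing on an array and were not tested. A filter on dim probes (well above background on 4 of 8 arrays or more) kept 23677. The groups were fitted in limma 3.58.1 (lmFit and eBayes, no covariate; R 4.3.3, data.table version 1.17.8), with Benjamini-Hochberg adjustment over these probes. The fit was tested on simulated data. Arrays give no counts, so the number of arrays limits the precision.

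Some genes are counted but not reported singly here. The channel genes, the 46 partner genes, the 11 lists of cell type markers, the genes to be named and the tests were chosen with earlier results of these data known. Values of single rats are given for genes that passed, for the largest difference and smallest p in each class, and for channels of nociceptors, axons and presynaptic terminals. Of the partners, those that passed, or else the 3 with the smallest p, are named, and Rimbp2 is added because its groups did not overlap. The alternatives were normexp with an offset of 50, quantile normalization, the series' table, no filter or a filter that requires all 8 arrays, array weights, unmoderated tests, a robust fit with a variance trend, a block for replicate number, each array left out, the 5′ minus 3′ difference (probes at least 300 bases apart) as a covariate, and the mean of a gene's probes or its dimmest probe. Gene names were matched to a RefSeq gene table, whose coordinates were not used.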

Additional observations from a re-analysis of the deposited data

Results flagged for a closer look

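In 4 of the 76 groups of 4 rats tested (38 genes in each group), 1 rat lay so far from the other 3 that its gap, as a share of the group's whole range, was above Dixon's 95% critical value for 4 samples. Chance flags about 1 in 20 groups, which would be 3.8 of 76. In 3 of the 4 the rat was control replicate 2, with a share of 0.864 in Cacnb1, 0.862 in Cacna1h and 0.839 in Scn8a, and in each it was the highest control. In the other it was stressed replicate 3, the lowest stressed rat for Cacnb4, with a share of 0.846.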

How the results depend on the processing

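Over all probes, the 885 that passed became 215 with normexp, 3010 with no filter on dim probes, 11983 with array weights and 2393 with the 5′ minus 3′ covariate, and 0 to 10038 when each array was left out, with 10038 without control replicate 2 and 0 to 72 without any of the others. The array weight was 0.11 for control replicate 2 and 0.78 to 2.71 for the other arrays, so the weighted fit counted that rat least. After quantile normalization 634 of the calls were lower and 618 higher in stressed rats, where 230 were lower and 655 higher otherwise. The count of channel genes that passed, 1, was 0 with normexp, 0 with the mean of a gene's probes, 21 with array weights and 0 to 20 when each array was left out. The 20 were without control replicate 2, and the count was 0 without each of the other 7 arrays. Among the partner genes the count of 0 ran from 0 to 17 in the same way, with 17 without control replicate 2. In settings added for them after seeing the data it was 20 of 38 (52.6%) with array weights, 3 of 38 (7.89%) with the 5′ minus 3′ covariate, 2 of 38 (5.26%) with a variance trend and robust fit and 1 of 40 (2.5%) with no filter. In the same order, 11983, 2393 and 1295 of all 23677 probes passed, and 3010 of 30357 with no filter. The 2 channel genes whose groups did not overlap became 4 after quantile normalization, where the share over all probes was not counted. Without control replicate 2 they became 15 (39.5%), against 43.8% of all probes. The count of detected genes was 38 at 4 arrays and 34 at all 8. The causes were not tested.

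With replicate number as a block, 0 of all probes and 0 channel genes passed by limma (4292 probes and 4 channel genes at an unadjusted p below 0.05). The numbers were not used for pairing, since the same-numbered rats correlated at 0.10, 0.12, -0.09 and 0.31 in their deviations from the group means and 0 of the 4 stressed rats correlated best with the control of its own number.

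Of the 38 genes, 14 kept their sign in every setting run. The sign turned with normexp in Cacna1s (0.0602), Scn10a (0.11) and Scn11a (0.054), and after quantile normalization in Cacna1c (-0.15), Cacna2d3 (-0.0027), Cacnb2 (-0.17), Cacng1 (-0.24), Cacng3 (-0.12) and Cacng4 (-0.0182). With array weights it turned in Cacng3 (-0.0266), Scn10a (0.063) and Scn2b (0.11). With the 5′ minus 3′ covariate, where the fit depends strongly on control replicate 2, the sign turned in Cacna1a (-0.17), Cacna1i (0.0169), Cacna2d2 (-0.15), Cacna2d3 (-0.14), Cacnb2 (-0.15), Cacng1 (-0.14), Cacng4 (-0.86), Cacng5 (-0.0237), Cacng7 (-0.40), Cacng8 (-0.32), Scn10a (0.0782), Scn1a (0.0196) and Scn8a (-0.0458). At the dimmest probe it turned in Cacna1b (0.28), Cacna1g (0.0927), Cacnb1 (-0.0359) and Cacnb4 (-0.0295), among the genes reported. With 1 array left out it turned in 9 genes, whose values ran from -0.13 to 0.23 in Cacnb2, -0.0143 to 0.0242 in Cacna1c, -0.26 to 0.0354 in Cacna1s, -0.11 to 0.19 in Cacng1, -0.0414 to 0.0673 in Cacng3, -0.18 to 0.68 in Cacng4, -0.26 to 0.10 in Scn2b, -0.23 to 0.27 in Scn10a and -0.18 to 0.0085 in Scn3a. Signal over background limits Cacna1f and Cacna2d4, which had none, and Cacng4, which was well above it on 4 of 8 arrays.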
